A study of Chlorocebus sabaeus with 18 samples.

Results

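CLK1, CLK2, CLK3, CLK4, SRPK1, SRPK2 and DYRK1A are kinases that phosphorylate splicing factors. The 7 genes were chosen by name, without use of their measured values, and their exon bins were taken from the bin counts by Ensembl gene ID, IDs inside groups of overlapping genes included. All 7 were found among the 19997 genes or groups of overlapping genes with counts, and all 7 passed the filter on low counts. They held 319 of the 431444 exon bins, stretches of annotated sequence between neighbouring exon boundaries of any transcript, and 262 of these bins were abundant enough to test.

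SR proteins are splicing factors whose arginine- and serine-rich domain must be phosphorylated and dephosphorylated in turn as they enter the nucleus, join the spliceosome and leave it. SRPK kinases work mainly in the cytoplasm, where the phosphate they add promotes import of SR proteins into the nucleus, and CLK kinases phosphorylate them further in the nucleus and release them from nuclear speckles. In human and mouse cells, part of the CLK1 and CLK4 transcripts is kept in the nucleus unfinished, with introns retained on both sides of an exon of the kinase, and can be spliced later. TRA2A, the factor changed in this study, is an SR-like protein that binds purine-rich exonic enhancers.

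The cells were COS-7, which derive from African green monkey kidney, and total RNA depleted of ribosomal RNA was sequenced, so that unspliced as well as spliced transcripts were read. The 5 groups with counts, each of 3 libraries, were CGG_siTRA (transfection of 60 CGG repeats in the FMR1 leader together with an siRNA to TRA2A), CGG (the repeat alone), TRA_OE (overexpression of TRA2A, as GFP_TRA in the sample titles), siTRA (the siRNA alone) and CTL (untreated control cells). A further group of 3, the repeat with overexpression (CGG_TRA), entered only the splicing events that the authors deposited. No group is labelled as an empty vector or a control siRNA, so the named treatment and the transfection itself cannot be told apart in any difference from CTL. Apart from a round, not said of what, in 2 CGG_siTRA titles, the labels give no culture or day for a replicate. Every p-value below therefore rests on a spread within groups of 3 libraries that may be technical. The main tests here estimated that spread jointly over all 15 libraries, not only over the groups compared. The comparisons with CTL share its 3 libraries and are not independent of each other. Whether fewer cells carried a transcript or each cell carried less of it cannot be told apart in bulk RNA.

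Total counts over bins were 121142115 to 203957869 per library, with a median of 164357064. Letters a, b and c name the 3 libraries of each group, because the count columns are numbered through the series, and those numbers equal the replicate numbers of the titles in CTL alone. The round of the 2 CGG_siTRA titles could be matched to no column either. The gene taken as TRA2A (ENSG00000164548.10) was the 1 gene well raised in TRA_OE vs CTL and well lowered in siTRA vs CTL and CGG_siTRA vs CGG. It stood at 25.001% of the CTL mean in CGG_siTRA, 95.1% in CGG, 1197% in TRA_OE and 22.9% in siTRA. Because it was picked by these values, they are no separate check of the knockdown or the overexpression. The files do not pair gene IDs with names, so the markers of the cell type could not be checked. Library c of siTRA and library c of CGG_siTRA stood apart from the other 2 of their groups in the retained introns described below, where they were lower, and retention in both groups is given with and without them.

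The sums of the kinase genes differed little between groups. The ratio of the highest to the lowest of the 5 group means had a median of 1.16 over the 7 genes, against 1.37 over all genes, and ran from 1.06 for CLK1 to 1.31 for CLK3. By mean count the 7 lay between percentiles 60.8 (CLK2) and 92.1 (SRPK1) of the tested genes. The comparison with all genes was not matched for abundance. Per kilobase of bins, the mean normalised count was 4293 for SRPK1, 3534 for SRPK2 and 2094 each for CLK1 and DYRK1A. It was 1214 for CLK2, 553 for CLK4 and 498 for CLK3. This order depends on the width of all bins, 19611 bases for CLK3, 3553 for CLK2 and 7930 for CLK4, and does not rank transcripts. Exons flanking the upstream and downstream introns described below averaged 3.20 and 5.02 counts per base in CTL for CLK3. The same means were 1.90 and 3.04 for CLK2, and 2.90 and 3.25 for CLK4. The gene sums are on the authors' scale, with 1 size factor per library. The log2 changes are from edgeR's quasi-likelihood test with TMM scaling, with a standard error (SE) and a Benjamini-Hochberg p adjusted over 14969 genes, called under 0.05. The authors' factors moved the median log2 change of all genes by -0.12 in CGG_siTRA vs CTL relative to TMM, and by less than 0.1 in the other comparisons.

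**Figure D1:**
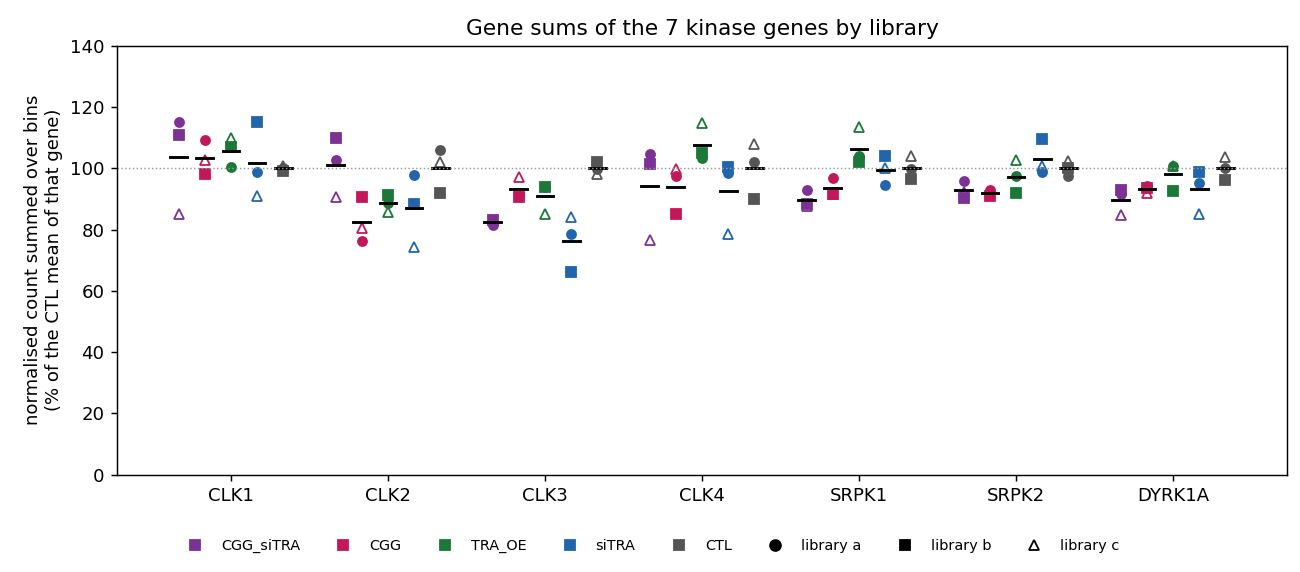
Normalised count summed over the bins of each of the 7 kinase genes, as a percentage of the CTL mean of that gene, for every library. Colours mark the groups, marker shapes the libraries and bars the group means. The group means lie between 89.6% and 106% for CLK1, SRPK1, SRPK2 and DYRK1A, with single CLK1 libraries of CGG_siTRA and siTRA spread more widely. The 3 siTRA libraries of CLK3 lie below its CTL libraries, with a mean of 76.4%.

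CLK3 was the 1 kinase of the 7 whose sum changed in siTRA vs CTL, and it fell. CLK3 (ENSG00000179335.18, chr15:74598500-74645414, plus strand), a CLK family kinase of SR proteins, had normalised counts of 8662, 7303 and 9281 in siTRA libraries a to c, against 10998, 11237 and 10816 in CTL libraries. All 3 siTRA libraries were below all 3 CTL libraries. The log2 change was -0.32 (SE 0.08, adjusted p = 0.00416), and the call held in each of the 14 alternatives tried. CLK3 was called among 38.0% of all genes called in siTRA vs CTL, so 1 of 7 is a smaller share than that of all genes. With the repeat present as well, CLK3 had 8968, 9173 and 9158 in CGG_siTRA, against 10094, 9988 and 10703 in CGG. These libraries do not overlap on the authors' scale, but the log2 change of CLK3 in CGG_siTRA vs CGG was -0.07 with TMM and was not called.

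The CLK2 sum was higher in CGG_siTRA than in CGG. Its log2 change there differed from that in siTRA vs CTL. CLK2 (ENSG00000176444.18, chr1:155262868-155273516, minus strand), a nuclear SR protein kinase, had 4825, 5168 and 4254 in CGG_siTRA, against 3587, 4263 and 3778 in CGG. The lowest CGG_siTRA library, c, stood just under the highest CGG library, b. The log2 change was 0.39 (SE 0.10, adjusted p = 0.0156), and CLK2 was the 1 member called where 10.2% of all genes were. The call was lost without CGG library a, CGG library c or CGG_siTRA library b, at log2 changes of 0.34, 0.38 and 0.32. In siTRA CLK2 had 4599.8, 4148 and 3494, against 4969.9, 4318 and 4798 in CTL, with overlapping libraries and an uncalled log2 change of -0.14. The difference between the knockdown's log2 change with the repeat and without it was 0.54 (SE 0.14, adjusted p = 0.0135), the 1 call among the members where 19.4% of all genes were called. It lay between 0.45 and 0.64 with each library left out, and was called in each of those fits. It was 0.49 and no longer called (adjusted p = 0.0709) when each gene was represented by its highest bin in place of its sum. In TRA_OE CLK2 had 4164, 4289 and 4024, all below the CTL libraries, with an uncalled log2 change of -0.19. The CLK2 sum averaged 82.6% of the CTL mean in CGG, 88.6% in TRA_OE, 86.9% in siTRA and 101% in CGG_siTRA. The difference of 0.54 sets a comparison of transfected groups against siTRA vs untreated CTL. Knockdown and transfection therefore cannot be told apart in it.

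No change of the CLK1 sum was called in any comparison over all 15 libraries. CLK1 (ENSG00000013441.15, chr2:200853009-200864744, minus strand), the best studied of the CLK kinases, averaged 10597 ± 1655 in CGG_siTRA, 10558 ± 559 in CGG, 10794 ± 492 in TRA_OE, 10383 ± 1253 in siTRA and 10209 ± 75.0 in CTL (SD, n = 3 each). The CGG_siTRA libraries had 11757, 11333 and 8702, and the siTRA libraries 10101, 11753 and 9295. Library c was the lowest in both groups. CLK4 (ENSG00000113240.12, counted together with the overlapping ENSG00000252464.1, chr5:178602665-178627114, minus strand), the closest relative of CLK1, had 4693, 4551 and 3435 in CGG_siTRA, 4373, 3825 and 4473 in CGG, 4639, 4718 and 5148 in TRA_OE, 4418, 4513 and 3530.4 in siTRA, and 4581, 4046 and 4843 in CTL. All groups overlapped with CTL, and library c was again the lowest of both knockdown groups.

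The ratio of the highest to the lowest group mean was 1.19 for SRPK1, 1.12 for SRPK2 and 1.11 for DYRK1A. SRPK1 (ENSG00000096063.15, chr6:35832966-35921342, minus strand), the main cytoplasmic kinase of SR proteins, averaged 26327 ± 854 in CGG_siTRA, 27442 ± 896 in CGG, 31261 ± 1779 in TRA_OE, 29237 ± 1416 in siTRA and 29368 ± 1101 in CTL (SD, n = 3 each). SRPK2 (ENSG00000135250.16, chr7:105110704-105399308, minus strand), its relative, averaged 21448 ± 656 in CGG_siTRA, 21243 ± 227 in CGG, 22472 ± 1240.4 in TRA_OE, 23807 ± 1319 in siTRA and 23090.0 ± 568 in CTL. DYRK1A (ENSG00000157540.19, chr21:37365790-37517450, plus strand), a dual-specificity kinase found in nuclear speckles and encoded in the Down syndrome region of chromosome 21, averaged 20231 ± 1002 in CGG_siTRA, 21038 ± 257 in CGG, 22095 ± 1067 in TRA_OE, 20996 ± 1599 in siTRA and 22547 ± 869.8 in CTL. No call was made for SRPK1 or DYRK1A in any comparison with edgeR.

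SRPK2 was the 1 member called in TRA_OE vs siTRA, where 31.6% of all genes were, at a log2 change of -0.16 (SE 0.06, adjusted p = 0.0402). Its libraries overlap, with 22514, 21211 and 23691 in TRA_OE, against 22820.3, 25305 and 23295 in siTRA. The change was -0.08 and not called with the authors' size factors, and the call was also lost without TRA_OE library a, TRA_OE library b or siTRA library b.

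In the other comparisons edgeR called 0 of the 7 sums. In CGG vs CTL, where 24.2% of all genes were called, 1 of 7 members had an unadjusted p under 0.05, as did 35.6% of all genes. That was CLK2, with 3587, 4263 and 3778 in CGG, against 4969.9, 4318 and 4798 in CTL, all CGG libraries below all CTL libraries, and a log2 change of -0.25 (SE 0.10, adjusted p = 0.0764). DESeq2 called 0 members there and 28.7% of all genes, and limma called CLK2 and 23.7% of all genes. In TRA_OE vs CTL, where 28.9% of genes were called, 0 members had an unadjusted p under 0.05, against 39.9% of all genes, and DESeq2 and limma called 0, against 32.1% and 28.9%. In CGG_siTRA vs CTL, where 30.9% were called, 0 had an unadjusted p under 0.05, against 40.6% of all genes. DESeq2 called 0 there, against 36.2%, while limma called 2, CLK3 and SRPK1, both lower, against 34.9%. In CGG_siTRA vs siTRA, where 0.0134% were called, 2 had an unadjusted p under 0.05, against 18.9% of all genes, and DESeq2 and limma called 0, against 5.33% and 0.0334%. The median size of the members' log2 changes was 0.08 in CGG vs CTL, 0.08 in TRA_OE vs CTL, 0.08 in siTRA vs CTL and 0.04 in CGG_siTRA vs CTL, against 0.19, 0.21, 0.25 and 0.22 over all genes, which were not matched for abundance.

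Within the CLK1 gene, the use of bins E025 and E026 beside 1 exon fell with the repeat and with TRA2A overexpression, while no change of the sum was called. Bin use is the count of a bin relative to the other bins of its gene, tested with edgeR's diffSpliceDGE over 265486 bins with a Benjamini-Hochberg p called under 0.05. Bin E026 of CLK1 (chr2:200859748-200860124, 377 bases) had normalised counts of 54.5, 29.9 and 56.9 in CGG, against 115, 93.9 and 134 in CTL. All CGG libraries were below all CTL libraries, and the CGG mean was 41.2% of that of CTL. The log2 change of relative use was -1.30 (SE 0.26, adjusted p = 0.00147). In TRA_OE the counts of E026 were 51.7, 52.1 and 67.3, also all below CTL, at a log2 change of -1.09 (SE 0.26, adjusted p = 0.0129). The neighbouring E025 (chr2:200859747-200859747), a bin of 1 base that shares reads with E026, was called with it, at -1.91 (SE 0.36, adjusted p = 0.000317) in CGG vs CTL and -1.27 (SE 0.33, adjusted p = 0.0434) in TRA_OE vs CTL.

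On the other side of the exon, bin E028 also fell with overexpression. Bin E028 of CLK1 (chr2:200860216-200860964, 749 bases) had 118, 89.6 and 104 in TRA_OE, against 199, 162 and 187 in CTL, a mean of 56.9% of CTL with no overlap. Its log2 change was -0.89 (SE 0.21, adjusted p = 0.0129). In CGG it had 104, 114 and 128, again all below CTL, at -0.70 (SE 0.21), and was not called (adjusted p = 0.182). CLK1 thus held both member bins called in CGG vs CTL, where 0.250% of all bins were called, and all 3 called in TRA_OE vs CTL, where 0.368% were.

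Some of these calls were lost when a single library was left out. In CGG vs CTL, E025 stayed called with any library left out, and E026 was lost without CTL library c (log2 change -1.18) or CGG library b (-1.11). In TRA_OE vs CTL, 0 member bins were called without CTL library a, CTL library c or TRA_OE library b, and 1 without TRA_OE library a, although the log2 change of E026 stayed between -1.21 and -0.96 and that of E028 between -1.03 and -0.78 over all those fits. With limma's diffSplice, E026 and E028 were not called in TRA_OE vs CTL, at -0.96 and -0.78.

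In CGG_siTRA vs CGG, CLK1 bins E025 and E026 rose, the change of E028 was not called (0.76, adjusted p = 0.131), and no change of the 3 was called in CGG_siTRA vs CTL or siTRA vs CTL. E026 had 183, 151 and 58.9 in CGG_siTRA, against 54.5, 29.9 and 56.9 in CGG. CGG_siTRA libraries a and b were far above CGG, and library c was just above its highest library. The log2 change was 1.44 (SE 0.26, adjusted p = 0.000362), and that of E025 was 2.06 (SE 0.35, adjusted p = 0.000107). These were the 2 member bins called in CGG_siTRA vs CGG, where 0.135% of all bins were called. Without CGG library b, E026 was no longer called (1.25). Without CGG_siTRA library c, 7 member bins were called, namely CLK1 E025, E026, E028, E030 and E031, CLK4 E022 and CLK2 E007. Without the repeat, E026 had 105, 142 and 45.9 in siTRA, against 115, 93.9 and 134 in CTL. Library c was below all CTL libraries, b was above them, and a lay among them.

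The difference between the knockdown's log2 change with the repeat and without it was 2.23 for E025 (SE 0.47, adjusted p = 0.0074) and 1.71 for E026 (SE 0.36, adjusted p = 0.006), the 2 member bins called where 0.108% of all bins were. This comparison of bins was added after the data were examined. Its part without the repeat is siTRA vs untreated CTL, so knockdown and transfection cannot be told apart in it either. Without siTRA library c, CTL library c or CGG library b, 0 member bins were called. Without CGG_siTRA library c, 7 were. With each library left out in turn, the value for E026 ran from 1.43 to 1.96.

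**Figure D2:**
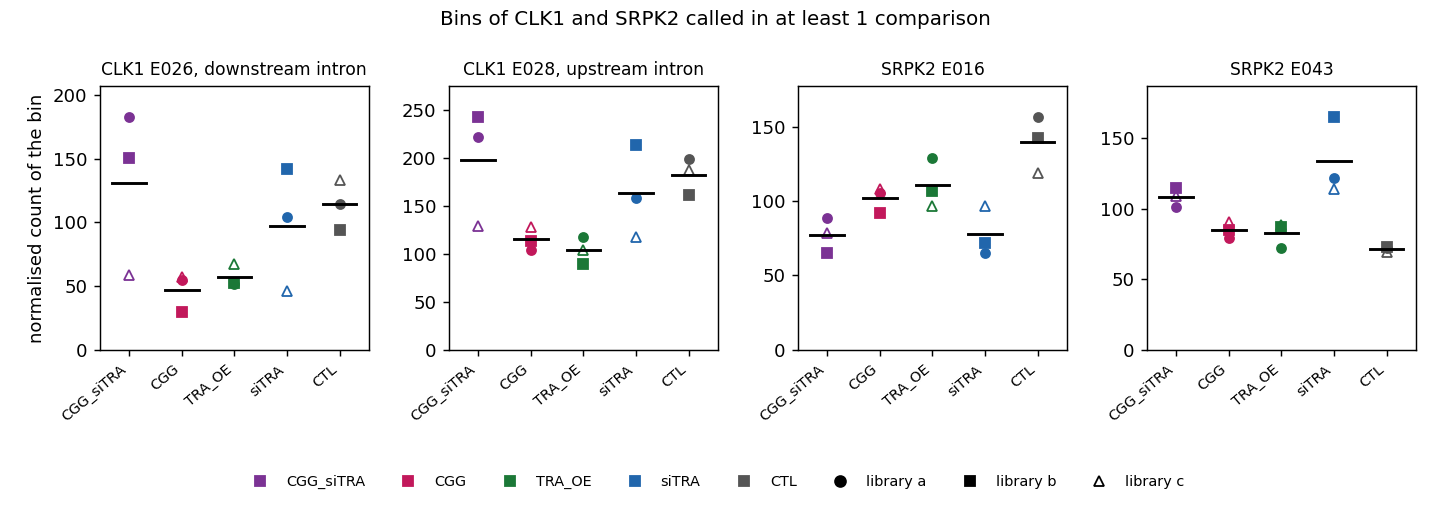
Normalised counts of the bins of CLK1 and SRPK2 called in at least 1 comparison, the 1-base E025 of CLK1 left out, for each library of the 5 groups. Shapes mark the libraries and bars the group means. In the CLK1 bins the CGG and TRA_OE libraries lie below CTL, and library c lies below a and b in CGG_siTRA and in siTRA. In SRPK2 the siTRA libraries lie below CTL for E016 and above it for E043.

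Retention of whole introns was then described for both sides of 1 exon in each CLK gene, as the counts per base of the intron's bins over the mean counts per base of the exon bins on both sides, in percent. These 8 introns were chosen after the bin values were seen, so no test is given for them. Upstream and downstream are in the direction of transcription. In the CLK1 intron upstream of the exon (chr2:200860216-200861237, 1022 bases), retention was 5.28%, 5.85% and 2.93% in CGG_siTRA, 1.85%, 2.80% and 2.84% in CGG, 2.82%, 1.85% and 2.29% in TRA_OE, 4.04%, 5.34% and 2.82% in siTRA, and 4.56%, 4.07% and 4.63% in CTL. In the CLK1 intron downstream of it (chr2:200859747-200860124, 378 bases), retention was 8.49%, 8.03% and 3.07% in CGG_siTRA, 2.13%, 1.40% and 2.42% in CGG, 2.44%, 2.28% and 3.23% in TRA_OE, 5.28%, 7.93% and 2.29% in siTRA, and 6.08%, 4.89% and 7.01% in CTL. In both introns all CGG and TRA_OE libraries were below all CTL libraries, while CGG_siTRA and siTRA overlapped with CTL. The mean downstream retention was 1.98% ± 0.529 in CGG and 2.65% ± 0.508 in TRA_OE, against 5.99% ± 1.06 in CTL (SD, n = 3 each).

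In CLK4 the introns lie beside an exon of the same length as that of CLK1, 91 bases. In its upstream intron (chr5:178617435-178618555, 1121 bases), retention was 3.12%, 3.25% and 2.32% in CGG_siTRA, 1.81%, 1.84% and 2.75% in CGG, 2.31%, 2.57% and 1.97% in TRA_OE, 3.14%, 7.57% and 1.92% in siTRA, and 3.29%, 4.50% and 3.72% in CTL. In its downstream intron (chr5:178616949-178617343, 395 bases), retention was 8.70%, 7.56% and 2.57% in CGG_siTRA, 2.77%, 1.91% and 3.45% in CGG, 4.92%, 3.32% and 3.67% in TRA_OE, 4.59%, 4.998% and 1.54% in siTRA, and 5.91%, 6.92% and 6.69% in CTL. The CGG and TRA_OE libraries were again all below CTL in both introns. The CGG mean was 0.556 of the CTL mean upstream and 0.416 downstream, and the TRA_OE mean was 0.595 and 0.610 of it. No bin of CLK4 was called in any comparison with diffSpliceDGE over all 15 libraries. CLK1 and CLK4 are close paralogues, and how reads that fit both were counted is not given in the sources used here.

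CLK2 and CLK3, nuclear SR protein kinases too, also had lower retention with the repeat and with overexpression. In CLK2 upstream of its exon (chr1:155268796-155269487, 692 bases), retention was 14.5%, 13.1% and 6.93% in CGG_siTRA, 6.23%, 11.5% and 7.16% in CGG, 7.04%, 6.85% and 8.13% in TRA_OE, 10.3%, 11.4% and 5.89% in siTRA, and 14.97%, 11.9% and 15.8% in CTL. Downstream (chr1:155268360-155268707, 348 bases), CLK2 retention averaged 5.08% ± 2.51 in CGG_siTRA, 4.35% ± 1.29 in CGG, 4.43% ± 0.0814 in TRA_OE, 4.44% ± 1.77 in siTRA and 8.38% ± 1.54 in CTL (SD, n = 3 each). CLK2 is the gene in which the siTRA libraries too were all below the CTL libraries in both introns. In CLK3 upstream of its exon (chr15:74620226-74622119, 1894 bases), retention averaged 2.68% ± 1.16 in CGG_siTRA, 1.53% ± 0.142 in CGG, 1.38% ± 0.109 in TRA_OE, 2.35% ± 1.22 in siTRA and 2.86% ± 0.644 in CTL. Downstream (chr15:74622217-74622493, 277 bases), CLK3 retention averaged 1.93% ± 1.04 in CGG_siTRA, 1.20% ± 0.373 in CGG, 0.928% ± 0.455 in TRA_OE, 1.18% ± 0.496 in siTRA and 2.15% ± 0.628 in CTL. In both CLK3 introns the CGG and TRA_OE libraries did not overlap with CTL. Downstream this rests on low normalised counts, 10.7, 16.1 and 21.1 in CGG and 12.7, 19.2 and 5.61 in TRA_OE. The CTL libraries had 38.7, 22.3 and 28.3 there. The highest CGG library stood at 1.49% and the lowest CTL library at 1.56%.

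**Figure D3:**
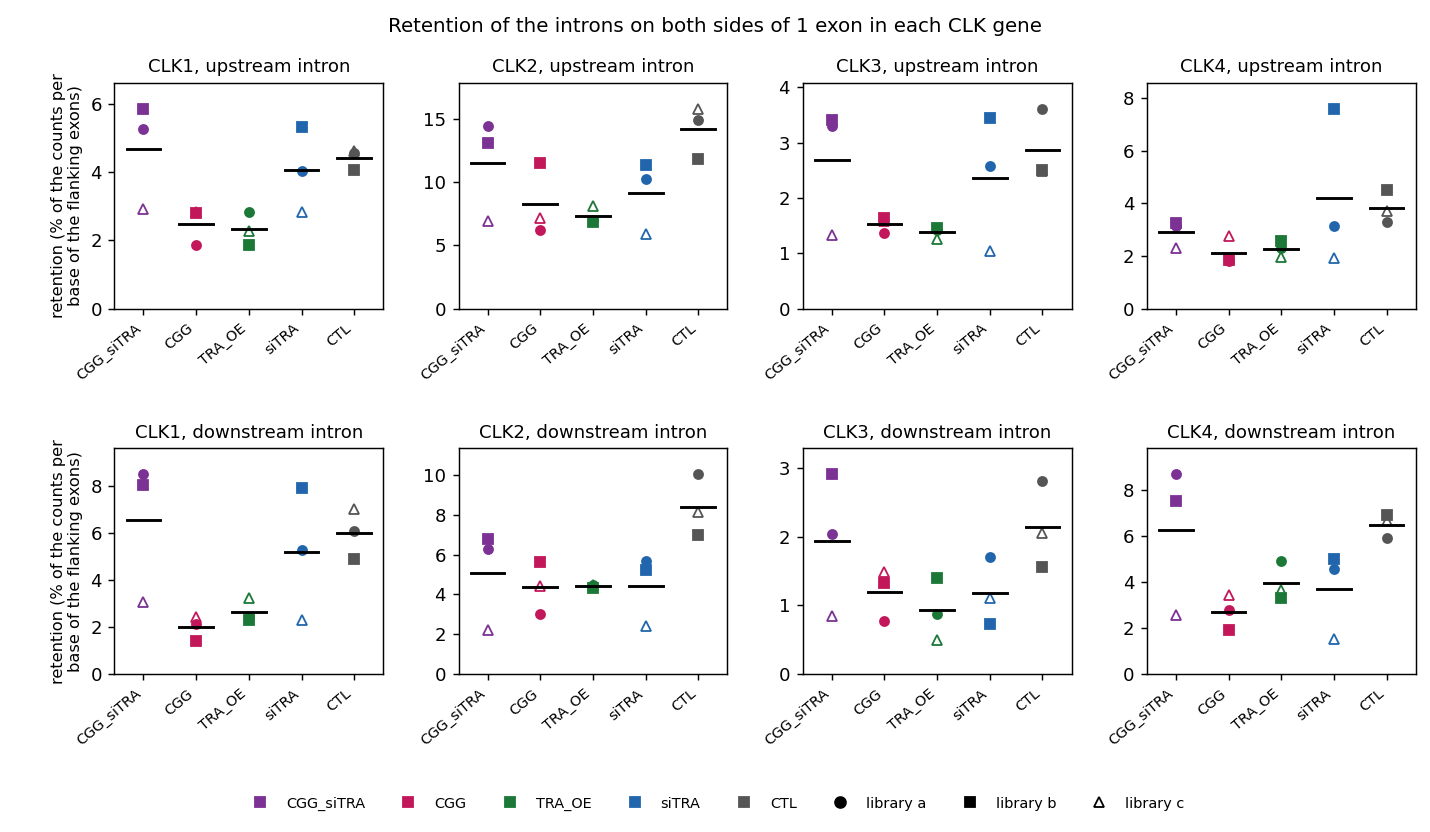
Retention of the introns on both sides of 1 exon in CLK1, CLK2, CLK3 and CLK4, as counts per base of the intron in percent of those of the exons on both sides, for every library. Shapes mark libraries a, b and c and bars the group means, and each panel has its own axis from 0. In all 8 panels the CGG and TRA_OE libraries lie below the CTL libraries, and library c of CGG_siTRA is the lowest of its group.

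Over the 8 introns, the CGG mean was 0.331 to 0.584 of the CTL mean with a median of 0.545, and the TRA_OE mean was 0.432 to 0.610 of it with a median of 0.521. The CGG libraries and the TRA_OE libraries did not overlap with CTL in 8 of 8 introns each. For other genes, 6062 single bins of low density between abutting bins, 100 bases or longer, were measured per base over the remaining bins of their gene. Of these, 15.4% were lower without overlap in CGG vs CTL and 13.8% in TRA_OE vs CTL. By that measure, from the same intron counts, the CLK introns were lower without overlap in 8 of 8 in both comparisons. They lie in pairs within genes, and most are sums of bins, some of which do not meet that density rule. The introns and the measure were chosen after the values were seen, so no count of them here or below is a test against these shares. In CGG_siTRA the mean was 0.606 to 1.09 of the CTL mean with a median of 0.918, and 2 of 8 introns did not overlap, CLK2 downstream and CLK4 upstream. In siTRA it was 0.530 to 1.10 with a median of 0.734, and 3 of 8 did not overlap, both of CLK2 and CLK4 downstream. By the measure over remaining bins these 2 counts were 0 of 8 and 4 of 8, against 8.18% and 8.68% of bins of other genes that were lower without overlap. Between CGG_siTRA and CGG, the 2 introns of CLK1 did not overlap, with means 1.88 and 3.29 times those of CGG. By the measure over remaining bins 2 of 8 were higher there without overlap, against 12.3% of bins of other genes. The flanking exons themselves were at 0.727 to 1.18 of their CTL level per base.

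Library c had the lowest retention of its group in 8 of 8 introns in CGG_siTRA and in 7 of 8 in siTRA. Relative to CTL, the median log2 level of the 8 introns was 0.05 and 0.21 in CGG_siTRA libraries a and b and -1.10 in library c, and it was -0.46 and -0.40 in siTRA libraries a and b and -1.51 in library c. The 6062 low-density bins of other genes had a median of -0.17 in each library c, the 2 lowest of the 15 libraries. Without library c, CLK1 retention in CGG_siTRA was 1.26 times that of CTL upstream and 1.38 times downstream, in place of 1.06 and 1.09. In siTRA without library c it was 1.06 and 1.10 times that of CTL for CLK1, in place of 0.920 and 0.862. The CLK4 downstream intron came to 1.25 times CTL in CGG_siTRA without library c, in place of 0.965. CLK2 downstream stayed below CTL without library c, at 0.778 in CGG_siTRA and 0.650 in siTRA. For CLK4 upstream the values without library c were 0.831 in CGG_siTRA and 1.40 in siTRA, in place of 0.756 and 1.10, and for CLK4 downstream in siTRA 0.737 in place of 0.570. For CLK2 upstream they were 0.970 in CGG_siTRA and 0.762 in siTRA, in place of 0.809 and 0.646. CLK3 stood without library c at 1.17 upstream and 1.15 downstream in CGG_siTRA, in place of 0.936 and 0.901, and at 1.05 and 0.568 in siTRA, in place of 0.823 and 0.550. The median over the 8 introns was 1.16 in CGG_siTRA and 0.907 in siTRA without library c. In CGG_siTRA, 2 introns then lay below all CTL libraries and 3 above them, both of CLK1 and CLK4 downstream, and in siTRA 3 lay below. What set library c apart was not tested.

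These introns are a small share of each gene's counts. They held 5.17% of the CLK1 sum in CGG_siTRA, 2.48% in CGG, 2.48% in TRA_OE, 4.19% in siTRA and 4.87% in CTL. For CLK4 the shares were 4.22%, 2.54%, 3.01% and 3.68% in CGG_siTRA, CGG, TRA_OE and siTRA, and 4.61% in CTL. The exon between them is given as its counts per base in percent of those of its neighbours. In CLK1 (chr2:200860125-200860215), it stood at 76.4% of them in CGG_siTRA, 73.9% in CGG, 78.7% in TRA_OE, 78.3% in siTRA and 74.8% in CTL. In CLK4 (chr5:178617344-178617434), it stood at 155%, 137%, 147% and 137% in CGG_siTRA, CGG, TRA_OE and siTRA, and at 144% in CTL.

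A wider set of bins in the CLK genes was read by a rule on density. A bin was counted as intron-like if it abuts other bins of its gene on both sides and its mean count per base over the 15 libraries is under 0.5 of that of each of them, which also takes some exonic bins beside very short ones. The CLK genes had 17 such bins among the tested, and all genes had 10457. In CGG vs CTL, 16 of the 17 had a log2 change below 0, with a median of -0.64, against a median of -0.03 and 57.8% below 0 over all genes. In TRA_OE vs CTL, 14 of the 17 were below 0, with a median of -0.50 against -0.03. In siTRA vs CTL the median was -0.10 against 0.00, with 9 of the 17 below 0. In CGG_siTRA vs CGG, 15 of the 17 were above 0, with a median of 0.35 against 0.06. In TRA_OE vs siTRA, 16 of the 17 were below 0, with a median of -0.41 against -0.04. The bins share introns and reads within a gene and are not independent. The counts also take in bins close to 0, such as CLK3 E046 at -0.007 in CGG vs CTL and CLK4 E010 at -0.013 in TRA_OE vs siTRA. A share of bins below 0 over all genes is given here for CGG vs CTL alone. The counts out of 17 in the other comparisons are therefore not set against all genes. The medians over all genes had the same sign as those of the 17 in TRA_OE vs CTL, CGG_siTRA vs CGG and TRA_OE vs siTRA. They were nearer 0, at -0.03, 0.06 and -0.04. CGG_siTRA vs CTL and CGG_siTRA vs siTRA are not described here and appear only in the plot of the 17 bins. The other 137 tested bins of the CLK genes had a median of 0.01 in CGG vs CTL and 0.02 in TRA_OE vs CTL.

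**Figure D4:**
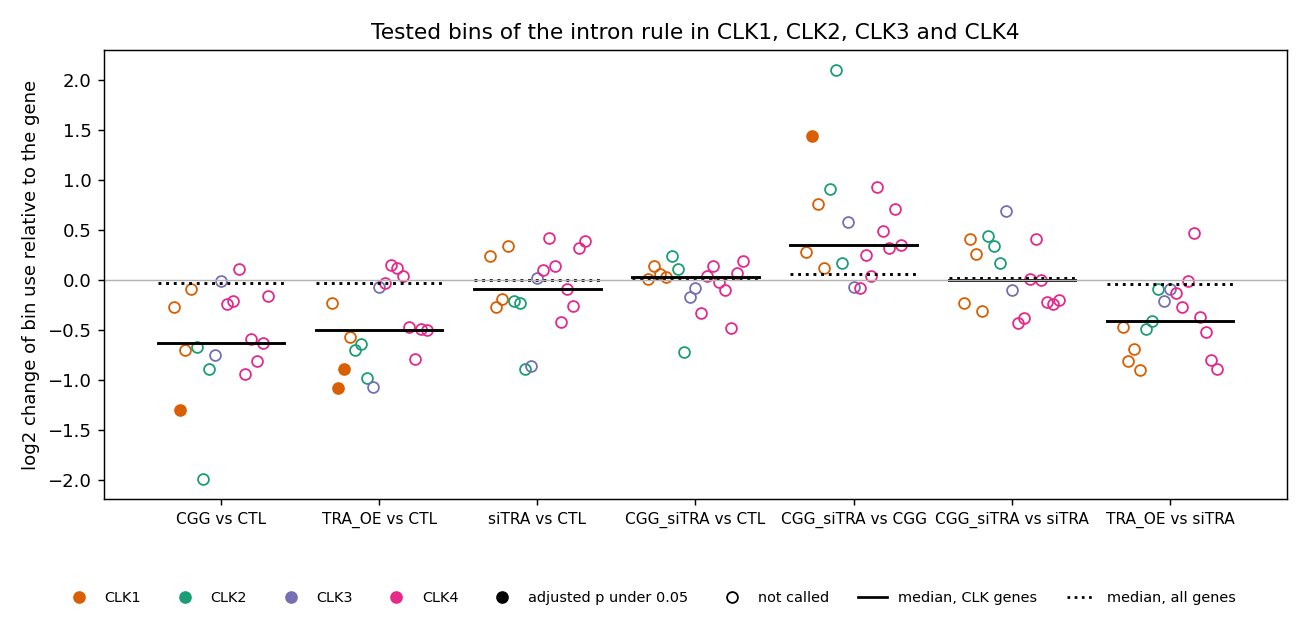
Log2 change of relative use of the 17 tested intron-like bins of CLK1, CLK2, CLK3 and CLK4 in 7 comparisons. Each point is a bin, coloured by gene and filled where called, with solid lines at the median of the 17 and dotted lines at the median of such bins in all genes. The medians lie at -0.64 in CGG vs CTL and -0.50 in TRA_OE vs CTL, and at 0.35 in CGG_siTRA vs CGG.

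Among single intron-like bins of CLK4, the one of 825 bases (E028) had log2 changes of -0.81 in CGG vs CTL and -0.79 in TRA_OE vs CTL, and the one of 581 bases (E037) had -0.64 and -0.49. Others of CLK4 were nearer 0 or mixed in sign, with E005 at -0.25 and -0.03, E007 at -0.21 and 0.15, E010 at 0.11 and 0.12, and E012 at -0.94 and 0.04. CLK4 E039 had -0.16 and -0.50. Within the downstream intron of CLK4, bin E022 had -1.06 and -0.60, and bin E023 had -0.85 and -0.56. In CLK1, beside E026 and E028 above, E020 had -0.27 and -0.23 and E034 had -0.09 and -0.57. In CLK2, E007 had -1.99 in CGG vs CTL (adjusted p = 0.257), at low counts of 2.37, 4.59 and 2.44 in CGG against 18.3, 12.1 and 15.6 in CTL. CLK2 E015 had -0.98 in TRA_OE vs CTL (adjusted p = 0.0835). None of these was called. The deposited DEXSeq tables of the authors called more member bins. In CGG vs CTL the authors' deposited table had 0 member bins higher and 9 lower of 279, with 2.0% of all its bins called, and 8 of the 9 were in CLK1, CLK2, CLK3 and CLK4. In TRA_OE vs CTL the authors' deposited table had 1 higher and 10 lower of 291, with 1.32% of all its bins called. Over the other comparisons, the authors' deposited tables called 2 member bins higher and 3 lower in siTRA vs CTL, 7 and 4 in CGG_siTRA vs CTL, and 5 and 7 in CGG_siTRA vs CGG, where they called 1.83%, 3.87% and 3.34% of all bins. That table of the authors' for CGG vs CTL, as deposited, listed CLK1 E028 at -0.70 with an adjusted p of 7.9e-05 and CLK2 E007 at -2.05 with an adjusted p of 0.00271.

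In SRPK2, the use of 1 bin was lower and that of another higher in siTRA than in CTL. SRPK2 bin E016 (chr7:105125782-105125874, 93 bases) had normalised counts of 65.0, 71.6 and 96.7 in siTRA, against 157, 142 and 119 in CTL. All siTRA libraries were below all CTL libraries, with a mean of 55.8% of CTL. The log2 change of use was -0.88 (SE 0.17, adjusted p = 0.0022). SRPK2 bin E043 (chr7:105268870-105269015, 146 bases) had 121, 165 and 114 in siTRA, against 71.9, 72.5 and 69.3 in CTL. All siTRA libraries were above CTL, at 188% of its mean and a log2 change of 0.85 (SE 0.17, adjusted p = 0.00551). These were the 2 member bins called in siTRA vs CTL, where 0.508% of all bins were. E016 lost its call without CTL library a (-0.77) or siTRA library b (-0.78), and E043 without CTL library c (0.81) or siTRA library b (0.73).

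With the repeat and the knockdown together, SRPK2 E016 had 88.8, 65.3 and 78.2 in CGG_siTRA, again all below CTL. The log2 change was -0.74 (SE 0.17, adjusted p = 0.0249), the 1 member bin called in CGG_siTRA vs CTL, where 0.530% of all bins were. It was not called without CTL library a, CTL library b, CGG_siTRA library b or CGG_siTRA library c, at -0.63 to -0.75. E043 had 101, 115 and 109 in CGG_siTRA, all above CTL, at a log2 change of 0.71 (SE 0.18, adjusted p = 0.0581). In the groups without the siRNA, E016 had 105, 91.9 and 108 in CGG and 129, 107 and 96.5 in TRA_OE. The CGG libraries were below CTL, and TRA_OE overlapped with it. E043 had 79.3, 85.0 and 90.2 in CGG, all above CTL. In TRA_OE it had 72.2, 86.8 and 88.6 and overlapped with CTL. Between treated groups neither bin was called. The log2 changes of E016 and E043 were -0.41 and 0.33 in CGG_siTRA vs CGG, and 0.59 and -0.60 in TRA_OE vs siTRA. The calls of both bins thus rest on comparisons with untreated CTL.

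E016 is followed in the genome by E017 (chr7:105126248-105126340), of the same length of 93 bases, and an event of mutually exclusive exons in the authors' deposited tables (chr7:105118022-105126993) spans both. E016 held 13.4%, 10.2% and 11.4% of the summed counts of the pair in CGG_siTRA, 13.8%, 12.7% and 14.5% in CGG, 17.01%, 15.3% and 12.6% in TRA_OE, 8.89%, 9.53% and 12.9% in siTRA, and 19.3%, 17.04% and 15.8% in CTL. E017 itself averaged 586 in CGG_siTRA, 642 in CGG, 629 in TRA_OE, 666 in siTRA and 661 in CTL. The siTRA, CGG_siTRA and CGG libraries were all below CTL in this share, and TRA_OE overlapped with it.

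In the other comparisons of bin use, diffSpliceDGE called 0 member bins. In CGG_siTRA vs siTRA, where 0.0516% of all bins were called, 15 member bins (5.73%) had an unadjusted p under 0.05, against 5.31% of all bins, and limma's diffSplice called 4. In TRA_OE vs siTRA, where 0.396% were called, 26 (9.92%) had an unadjusted p under 0.05, against 6.34% of all bins, limma's diffSplice called 9 and the authors' deposited table called 2, both in CLK4, of the 0.595% of its bins that it called. Without siTRA library c, diffSpliceDGE called 8 member bins in TRA_OE vs siTRA. Of all bins, limma's diffSplice called 1.33% in CGG vs CTL, 1.29% in TRA_OE vs CTL, 2.38% in siTRA vs CTL, 1.38% in CGG_siTRA vs CTL, 1.12% in CGG_siTRA vs CGG, 1.73% in CGG_siTRA vs siTRA, 2.38% in TRA_OE vs siTRA and 1.5% for the knockdown's difference with and without the repeat. diffSpliceDGE called no bin of CLK2, CLK3, SRPK1 or DYRK1A in any comparison over all 15 libraries, while the authors' deposited tables called bins in each of these genes in at least 1 comparison. SRPK1 had 35 tested bins and DYRK1A 30. The largest bins held 15.3% of the sum of SRPK1 and 28.3% of that of DYRK1A.

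The authors' deposited EventPointer tables, which score splicing events by a change in percent spliced in (PSI), list 10 events in the 7 genes, 1 in CLK1, 3 in CLK2, 2 in CLK4, 2 in SRPK2 and 2 in DYRK1A. With p-values adjusted over the 6311 events of each table, 0 of the 10 passed 0.05 in any of the 5 authors' tables. At an unadjusted p under 0.05 they had 0 in CGG vs CTL, 0 in TRA_OE vs CTL, 1 in CGG_siTRA vs siTRA, 1 in CGG_TRA vs CGG and 2 in CGG_TRA vs CGG_siTRA, where the authors' tables had 7.68%, 8.18%, 6.31%, 8.13% and 8.87% of all events. An alternative 5′ splice site of DYRK1A (chr21:37472880-37478208) is the event that the authors' tables give in both comparisons of CGG_TRA, with a PSI change of 0.0721 against CGG (adjusted p = 0.459) and of 0.0496 against CGG_siTRA (adjusted p = 0.187). The SRPK2 event of mutually exclusive exons had a PSI change of 0.0135 in CGG vs CTL in the authors' tables (unadjusted p = 0.482). In CGG_TRA vs CGG_siTRA the authors' tables give it -0.0222 (adjusted p = 0.532). For the CLK4 cassette exon (chr5:178616948-178618556), the authors' tables give 0.0538 in CGG_siTRA vs siTRA (adjusted p = 0.750). The direction of these PSI changes is not stated in the authors' tables. The CLK1 cassette exon had PSI changes from -0.013 to 0.007 in the authors' tables. A pair of CLK2 retained-intron events had PSI changes of -0.128 and -0.0976 in CGG vs CTL and of -0.123 and -0.110 in TRA_OE vs CTL in the authors' tables, none with a p under 0.05.

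Across the 15 libraries, the CLK1 sum was most like that of ENSG00000185246.17, with a Pearson correlation of log2 sums of 0.81, and of ENSG00000180479.13, with 0.78, among 10412 genes compared. CLK4 came close to these at 0.77. DYRK1A had 0.46, SRPK1 0.28, CLK2 0.20, SRPK2 0.17 and CLK3 -0.27. The 15 points share groups, scaling and the low libraries c, and no test is given.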

How the data were processed

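Total RNA of COS-7 cells was made into TruSeq libraries after removal of ribosomal RNA, per the labels' protocols. Per the submitters' processing notes, cutadapt 1.14 and STAR 2.5.2 were used with the human build GRCh38.p10, although the cells are of a monkey, and reads of diverged sequence may be lost. DESeq2 is listed there without a version or a role.

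The authors deposited raw counts per exon bin in 6 DEXSeq tables, with p-values and log2 fold changes, and 1 table of normalised signal per bin for 15 libraries, per the file headers. Their deposited EventPointer tables give, for 6311 events, a PSI change as a fraction with its p-value and z score. After division by a factor per library, 100% of the normalised values lay within 0.1 of a whole read. Counts of a library differed in 0 cells between tables, and 1623 cells that no table listed were filled from these reads. A read over several bins is counted in each. Bins outside the tables held 1.56% to 2.10% of reads.

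Counts were summed per gene and tested with edgeR 4.0.16 in R 4.3.3 (quasi-likelihood, TMM, all 15 libraries in 1 fit of 5 group means) over 14969 genes that reached 10 normalised counts in 3 libraries or more. Bin use was tested with diffSpliceDGE, whose natural-log coefficients were turned into log2. SEs are the size of the log2 change over the root of F. Fits of bins without a library kept the full fit's trended dispersion. Alternatives were limma 3.58.1 (pseudocount 1 or 0.5), DESeq2 1.42.0, the authors' size factors, no filter on low counts, only the groups compared, the highest bin per gene, sums without the intron-like bins, bins of 5 or more, and each library left out. Retention and intron shares have no test. Figures were drawn with matplotlib 3.10.9. Precision is limited by 3 libraries per group and, for introns, by low counts per bin.

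On simulated counts for CGG vs CTL, edgeR recovered 73% of genes changed 1.5-fold and 80% of those changed 2-fold, with 9 of 162 calls in unchanged genes, over 14969 genes. diffSpliceDGE recovered 22% and 55% of bins, with 2 of 82 calls outside changed genes, over 265486 bins. Each simulation changed 200 genes or bins in CGG alone, with a spread on the fitted trend. In the data 3622 genes were called in CGG vs CTL, and single libraries stood apart. The simulated rates therefore need not hold for the data.

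The members were chosen by gene name and not by a threshold on values, but they, the lists and the tests were chosen with earlier results of these data known. The 8 introns, the interaction of bins and the measure over a gene's remaining bins were added after the bin values were seen. Named genes are the 7 members, and named bins are those called or of the intron definition. Of 23133 Ensembl IDs, 0 were paired with names in the files or the monkey reference mChlSab1.0.hap1, so the planned list of pathway genes and the markers were not used. Member IDs came from the rule that chose them. Sequences are not shown.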

Additional observations from a re-analysis of the deposited data

Results flagged for a closer look

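The log2 change of the CLK2 sum with the TRA2A knockdown differed with and without the repeat, by 0.54 in edgeR's test of that difference (adjusted p = 0.0135), with 0.39 in CGG_siTRA vs CGG and -0.14 in siTRA vs CTL. In CLK1, the same difference was 2.23 for bin E025 (adjusted p = 0.0074) and 1.71 for bin E026 (adjusted p = 0.006) in diffSpliceDGE's test, and these bins share reads. Both bin calls were lost without siTRA library c, CTL library c or CGG library b. In all 3, the part without the repeat is siTRA vs untreated CTL, so knockdown and transfection cannot be told apart. No cause was tested for any of the 3.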

How the results depend on the processing

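No called log2 change of a gene or bin changed sign in any alternative. The 32 retention ratios recomputed over the remaining bins of each gene moved by less than 1 SD, but 2 crossed 1, CLK4 downstream in CGG_siTRA (1.06 in place of 0.965) and CLK4 upstream in siTRA (0.968 in place of 1.10), and without library c 3 crossed 1 in each of CGG_siTRA and siTRA. Counts of called sums became 1 (CLK2) in place of 0 in CGG vs CTL with the authors' size factors, limma at either pseudocount, and only the groups compared; 2 (CLK2, CLK3) in place of 0 in TRA_OE vs CTL with only the groups compared; and 2 (CLK3, SRPK1) with the authors' factors and limma at either pseudocount, or 1 with the highest bin, in place of 0 in CGG_siTRA vs CTL. They became 0 in place of 1 in CGG_siTRA vs CGG with limma at pseudocount 0.5 and the highest bin, in TRA_OE vs siTRA with no filter, only the groups compared and the highest bin, and in the knockdown's difference with and without the repeat with the highest bin. With each library left out they were 0 to 1 in CGG_siTRA vs CTL, 0 to 2 in CGG_siTRA vs CGG and TRA_OE vs siTRA, and 1 to 2 in that difference.

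Called member bins with limma's diffSplice were 6 in CGG vs CTL, 7 in TRA_OE vs CTL, 11 in siTRA vs CTL, 3 in CGG_siTRA vs CTL, 4 in CGG_siTRA vs CGG, 4 in CGG_siTRA vs siTRA, 9 in TRA_OE vs siTRA and 8 in the knockdown's difference, in place of 2, 3, 2, 1, 2, 0, 0 and 2, and its shares over all bins were 1.12% to 2.38%. The authors' deposited tables called 9, 11, 5, 11, 12 and 2, with none for CGG_siTRA vs siTRA. With each library left out the counts were 1 to 2 in CGG vs CTL, 0 to 2 in TRA_OE vs CTL, 0 to 3 in siTRA vs CTL, 0 to 2 in CGG_siTRA vs CTL, 1 to 7 in CGG_siTRA vs CGG, 0 to 8 in TRA_OE vs siTRA and 0 to 7 in the difference. The cause of these shifts was not tested.

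No paired analysis was possible because the count columns are numbered through the series and equal the replicate numbers of the titles in CTL alone, so no 2 groups share usable numbers. The low counts of intron bins limit the precision of single calls. The effect of aligning monkey reads to a human build was not tested.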
